A study of Mus musculus with 16 samples.

Results

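The lysosome, V-ATPase and cathepsin genes comprised 56 protein-coding genes of the 46078 genes in the count table. Of these, 26 were found by a symbol that begins with Atp6v0, Atp6v1 or Atp6ap, and 30 were listed by name. The second set held 8 cathepsins, 7 lysosomal membrane proteins, 7 glycosidases, 4 genes of lipid handling and saposins, granulin, and the 3 transcription factors of the MiT/TFE family. Within the first set, 9 genes encode the membrane sector (V0), 13 the catalytic sector (V1) and 3 the accessory proteins, while Atp6v1fnb matched by its symbol only and was never counted.

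The RNA-Seq study covered haematopoietic stem cells (HSCs), the cells at the root of blood formation, sorted by the surface profile LSK CD48-CD150+ in pools of 30 from the bones of C57/Bl6 mice. The authors separated the bone fraction (endosteal BM) from the marrow fraction (central BM) of tibia, femur and humeri. Untreated Gfra2 WT mice and mice that lack Gfra2 (Gfra2-/-) were compared, the second to study cholinergic control of HSCs, since cholinergic neurons depend on the receptor GFRα2. The deletion is present in all cells of the mouse, and the sources used here do not give the age of the mice or say how many animals each pool came from; the study calls the libraries biological replicates, and nothing ties a library to an animal, so p-values measure only the spread between these libraries. The 15 libraries analysed were 4 WT endosteal, 4 WT central, 4 Gfra2-/- endosteal and 3 Gfra2-/- central ones. They are named by letters within a group, given in the order of the columns of counts, and equal letters pair no libraries.

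The lysosome is the acidic compartment where cells degrade proteins, lipids and sugars. The V-ATPase pumps protons into it: V1 hydrolyses ATP in the cytosol and turns V0, which carries the protons across the membrane. Cathepsins are the proteases of the lumen, glycosidases cut sugar chains, and saposins present lipids to their hydrolases. TFEB, TFE3 and MITF bind an E-box called the CLEAR element in many lysosomal genes and raise their transcription. In HSCs, lysosomal content and activity have been linked to quiescence.

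The palindromic core of the CLEAR element, TCACGTGA, was looked for in promoter windows from 250 bases before to 50 after each RefSeq start (GRCm38.p6), because TFE3 and several genes it can bind are among the genes measured. RefSeq windows were found for 45 of the 56 genes, and 7 of the 45 (15.6%) held the core, against 1.12% of all 27025 genes with a window. The shorter E-box CACGTG, which lies within the core, was found in 12 of the 45 (26.7%) and in 8.09% of all genes. The 27025 genes were not chosen to match the 45 in expression or base composition, and the core is known from lysosomal genes. Both motifs read the same on the other strand. A match is a description of the letters and not evidence of binding. The 5 windows below are shown 5′ to 3′ on the strand of the gene, with the core in capitals, and were chosen because they cover a V1 gene, a V0 gene, both kinds of cathepsin listed with the core, and the lysosomal calcium channel.
Atp6v1a (chr16:44139373-44139402, minus strand): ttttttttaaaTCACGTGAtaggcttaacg
Atp6v0d1 (chr8:105566050-105566079, minus strand): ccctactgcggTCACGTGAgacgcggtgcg
Ctsd (chr7:142387908-142387937, minus strand): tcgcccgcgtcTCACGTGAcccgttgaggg
Ctsa (chr2:164833749-164833778, plus strand): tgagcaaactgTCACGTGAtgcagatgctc
Mcoln1 (chr8:3500462-3500491, plus strand): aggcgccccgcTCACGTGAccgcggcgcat

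The core began 132 bases before the RefSeq start of Atp6v1a, 4 bases before that of Atp6v0d1, 99 before that of Ctsd, 13 before that of Ctsa and 46 before that of Mcoln1. A second core of Ctsa, not shown, began 4 bases after the same start. The other genes with the core were Atp6v0e and Gla, and Gla held it at 228 and at 195 bases before its start.

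Libraries held between 826487 and 18550008 reads on genes. WT central libraries were the shallowest, from 826487 to 3367289 reads, and libraries A and C of that group had under 1500000 reads on genes. The study's cut-off of that size is on uniquely mapped reads; with ambiguous reads and those outside genes added, library A held 2200504 reads and only C, with 1431546, lay under it. In every group, 1 library carried under 0.5% of its reads on the spike-in RNAs (0.192% to 0.421%), against 0.764% to 7.10% in the others. The low library was D in the groups of 4 and C in the Gfra2-/- central group. The highest spike-in shares were those of WT central libraries A (5.997%), B (3.435%) and C (7.10%), and WT endosteal library A followed at 2.976%. Comparisons with the WT central group use these libraries. Gfra2 had 0 to 4 counts in WT and 0 to 1 in Gfra2-/- central libraries, whereas the Gfra2-/- endosteal libraries had 2, 47, 1 and 9. Reads in B and D are unexpected for their label, and whether they come from a part of the gene left in place was not tested. With at most 4 counts in any WT library, however, Gfra2 reads cannot tell the genotypes apart. Whether the labels hold was not tested, so the text speaks of libraries labelled Gfra2-/-. The HSC genes Slamf1, Kit, Ly6a, Procr, Mecom, Hlf and Fgd5 were counted in each library. The osteoclast list summed to at most 48.5 CPM, and neutrophil genes to at most 14.9 CPM except for 3220 CPM in WT central library D. Macrophage genes, mostly Lyz2, summed to 2460 CPM in WT central library C and 1380 CPM in Gfra2-/- central library C, against 320 to 761 CPM elsewhere. Lyz2 gave 2440 and 1350 CPM of these sums. The next highest macrophage gene was Csf1r (12.1 CPM) in the first library and C1qb (17.5 CPM) in the second, and Adgre1 had 0 counts in both. Lymphoid genes summed to 1800 CPM and erythroid genes to 604 CPM in Gfra2-/- endosteal library D, and to at most 344 and 109 CPM elsewhere; stromal genes reached 52.6 CPM and genes excluded by the sort 18.8 CPM. CPM are counts scaled to a common library total after TMM normalisation.

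The HSC libraries spent a small and similar share of their reads on these genes. The 56 genes together took a mean of 0.582% ± 0.0645 (SD, n = 4) of the reads of WT endosteal libraries and 0.514% ± 0.05 (SD, n = 4) of those of WT central libraries. For the libraries labelled Gfra2-/-, endosteal HSCs had a share of 0.565% ± 0.0597 (SD, n = 4) and central HSCs one of 0.589% ± 0.0152 (SD, n = 3). The ranges over libraries of the groups overlapped: WT central libraries reached 0.585%, above the lowest central library labelled Gfra2-/-, at 0.571%. Cathepsins formed the largest class in 14 of 15 libraries, with 0.0955% to 0.157% of reads, and the MiT/TFE factors the smallest of those with several members, with 0.000747% to 0.0126%. Since each library is a pool of sorted cells, fewer cells that express a gene and less RNA per cell cannot be told apart.

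**Figure D1:**
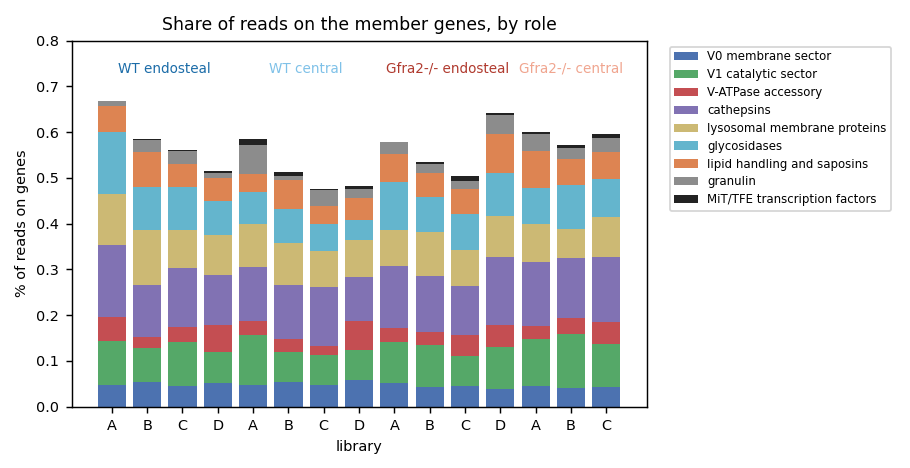
Percent of the reads on genes that fell on the lysosome, V-ATPase and cathepsin genes in each of the 15 libraries, stacked by role. Totals lie between 0.476% and 0.668%, and cathepsins make up the tallest segment in 14 of the 15 bars.

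Of the 56 genes, 34 had at least 10 counts in every library, 14 in some libraries and 8 in none. Levels were put on the scale of CPM per kilobase of exon for a comparison between genes. The length was that of all annotated exons of a gene together, so the order depends on the annotation. On this scale the highest median over the 15 libraries was that of Ctsd, the main aspartic protease of the lysosome, at 164. The V1 subunit Atp6v1f (115) and Ctsz (115), a cysteine carboxypeptidase, followed, then Lamp1 (93.7), the heavily glycosylated protein of the lysosomal membrane, and Hexa (79.9), the α subunit of β-hexosaminidase. The regulators were among the low genes: the medians of Tfe3, Mitf and Tfeb were 2.57, 1.3 and 1.09 CPM per kilobase, near Cd68 (2.71), and that of the glycosidase gene Gla was lower, at 0.51. Neighbours in this order were not separated by the spread between libraries, since Atp6v1f ranged from 91.5 to 254 and Ctsz from 54.3 to 207.

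**Figure D2:**
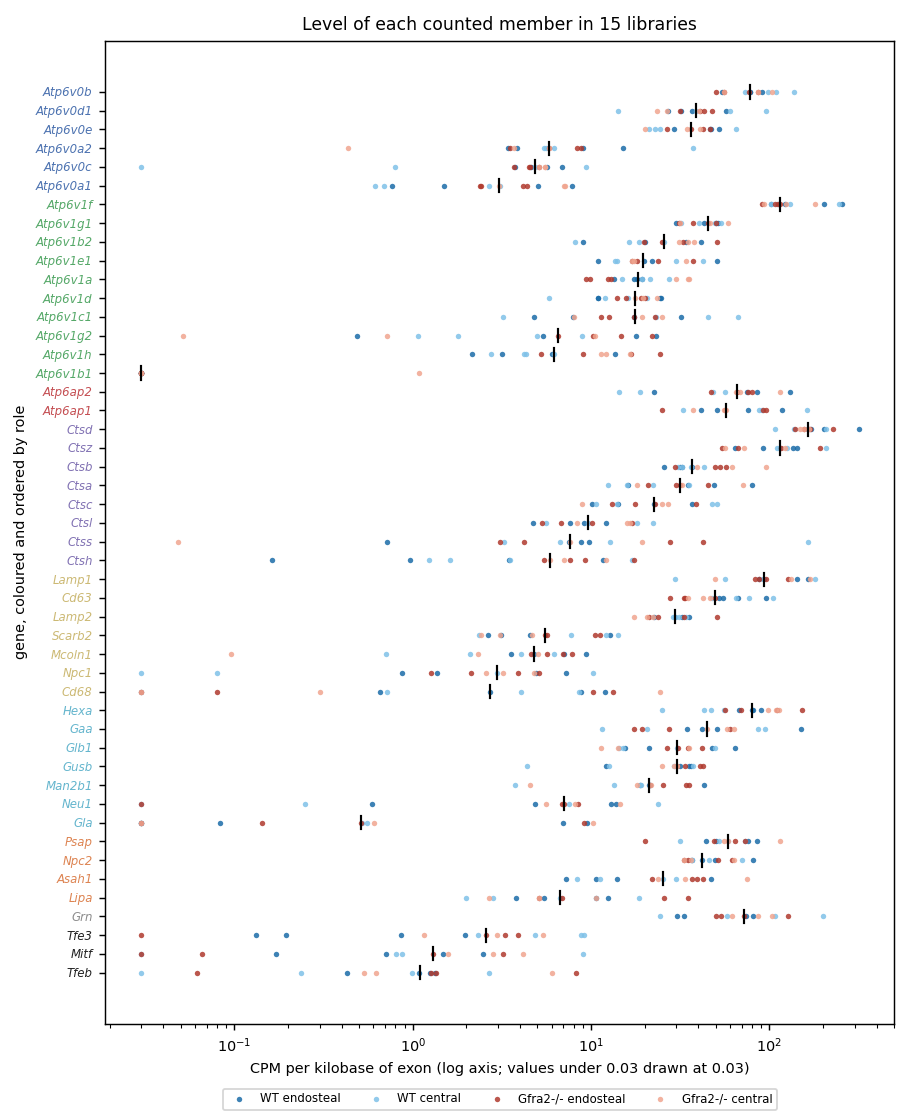
CPM per kilobase of exon (log axis) of the 48 genes with at least 10 counts in some library, 1 point per library, coloured by group, with a black bar at the median over 15 libraries; values under 0.03, zeros included, are drawn at 0.03. Gene names are coloured by role. Ctsd, Ctsz, Atp6v1f and Lamp1 lie to the right, and Ctss, Cd68 and Neu1 spread over the widest ranges.

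Several subunits of the V-ATPase were represented by 1 isoform, the broadly expressed one. For the B, C, d, e and E subunits, Atp6v1b2, Atp6v1c1, Atp6v0d1, Atp6v0e and Atp6v1e1 held at least 96.7% of the length-scaled level of their family in every library, whereas Atp6v1c2, Atp6v0d2, Atp6v0e2 and Atp6v1e2 had no count in any of the 15. Atp6v0d2 is the d subunit of osteoclasts, and Atp6v1b1 and Atp6v0a4 are known from the kidney: Atp6v1b1 had 72 counts in 1 library and Atp6v0a4 7 counts in 2. The G subunit came from Atp6v1g1 (58.8% to 99.9%) and Atp6v1g2 (0.0879% to 41.2%); Atp6v1g2 overlaps an exon of Nfkbil1 on the opposite strand, and the counting ignored strand.

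The a subunit, which anchors V0 and V1 to each other and directs the pump to its compartment, came mainly from Tcirg1, the a3 isoform best known from osteoclasts, whose symbol the rule does not match. Of the length-scaled level of the 4 a subunit genes, Tcirg1 held a median of 79.5% over the 15 libraries (46.7% to 87.2%), Atp6v0a2 11.8% (1.84% to 52.4%), Atp6v0a1 6.28% (0.863% to 25.3%) and Atp6v0a4 at most 0.481%. Tcirg1 was named here after its values were seen.

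The share of Atp6v0a1 among the 4 genes was 4.32%, 25.3%, 12% and 0.998% in WT endosteal libraries and 3.38%, 6.76%, 0.863% and 6.22% in WT central ones. It was 6.28%, 4.48%, 6.3% and 5.85% in endosteal libraries labelled Gfra2-/- and 16.9%, 12.9% and 21.2% in central ones. In this share, the 3 central libraries labelled Gfra2-/- lay above every WT central library. The level of Atp6v0a1 itself overlapped, at 46.4, 20 and 47 CPM against 4.53, 17.4, 4.02 and 20.2 CPM in WT. WT central libraries A and C held only 5 and 3 counts of Atp6v0a1. By edgeR neither Atp6v0a1 nor Atp6v0a2 passed the 10% FDR in central HSCs: the log2 fold change of libraries labelled Gfra2-/- over WT was 1.66 ± 0.98 (SE) for Atp6v0a1 (adjusted p = 0.684) and -2.05 ± 1.02 for Atp6v0a2 (adjusted p = 0.607). Both were named after their values were seen.

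**Figure D3:**
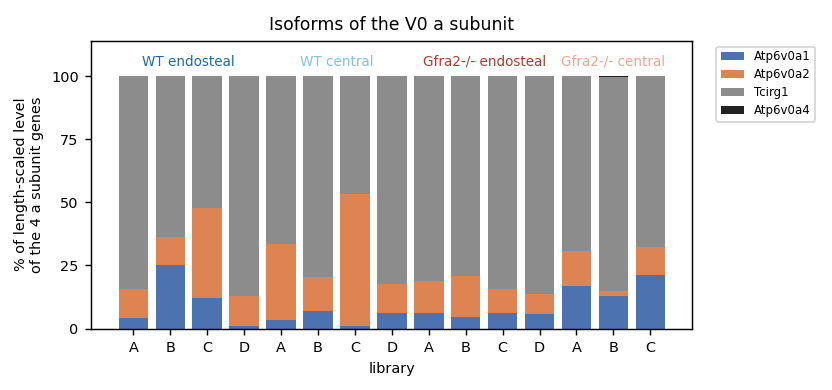
Percent of the length-scaled level (CPM per kilobase) of the 4 a subunit genes held by each of them in each library, stacked. Tcirg1 holds 46.7% to 87.2%, and the Atp6v0a1 share lies between 12.9% and 21.2% in Gfra2-/- central libraries and at or below 6.76% in WT central ones.

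Genes taken as landmarks whatever their result varied between libraries of a group, some of them several-fold. Lamp1 stood at 384, 438, 233 and 251 CPM in WT endosteal and 482, 151, 245 and 78.5 CPM in WT central libraries, and at 233, 221, 256 and 341 CPM in endosteal and 353, 132 and 448 CPM in central libraries labelled Gfra2-/-. Ctsd was steadier, at 742, 400, 476 and 385 CPM, then 387, 487, 253 and 321 CPM in the WT groups, and 330, 370, 394 and 537 CPM, then 366, 350 and 391 CPM in those labelled Gfra2-/-, endosteal before central. Groups overlapped for both genes, and their largest difference in the 4 comparisons was 0.45 ± 0.31 on the log2 scale, for Ctsd between WT compartments (edgeR adjusted p = 0.755).

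Psap, the precursor of the saposins, measured 138, 208, 232 and 121 CPM in WT endosteal libraries, 143, 160, 201 and 86.6 CPM in WT central, 133, 54.8, 177 and 200 CPM in endosteal and 313, 162 and 153 CPM in central libraries labelled Gfra2-/-. Tfeb was low, with 2.44, 6.2, 7.09 and 7.61 CPM in WT endosteal, 0, 5.6, 1.34 and 15.2 CPM in WT central, 7.64, 7.22, 46.5 and 0.35 CPM in endosteal and 3.54, 3.03 and 34.4 CPM in central libraries labelled Gfra2-/-. In each group labelled Gfra2-/-, 1 library held most of the Tfeb reads.

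Cd68, a lysosomal glycoprotein of macrophages, was counted in 12 of 15 libraries, with 3.41, 15, 0.818 and 11 CPM in WT endosteal, 0.905, 0, 10.7 and 5.06 CPM in WT central, 16.7, 0.101, 0 and 12.8 CPM in endosteal and 0, 0.378 and 30.8 CPM in central libraries labelled Gfra2-/-. Its highest value fell in the central library labelled Gfra2-/- with the most Lyz2, and the part of other cells in it was not tested. Atp6v0c, which forms most of the proton-carrying ring of V0, measured 15.6, 23.1, 19.3 and 12.6 CPM in WT endosteal, 0, 16.5, 2.68 and 31.7 CPM in WT central, 15.2, 17.3, 15.4 and 12.4 CPM in endosteal and 18.6, 17.2 and 18.6 CPM in central libraries labelled Gfra2-/-. The groups overlapped, and the level is uncertain, because a pseudogene with a like sequence took 3175 reads over the 15 libraries. For Psap, Tfeb, Cd68 and Atp6v0c, edgeR gave unadjusted p-values from 0.256 to 1 in the 4 comparisons of groups.

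WT endosteal and WT central HSCs were compared to ask how lysosomal genes differ between the niches. Tfe3, the MiT/TFE factor with the highest median level, was lower in endosteal HSCs by DESeq2 but did not pass the FDR by edgeR, and Hexa was the only other gene of the group whose libraries did not overlap. Tfe3 (chrX:7762560-7775202) measured 1.22, 1.8, 8 and 18.2 CPM in endosteal libraries and 84.2, 81.1, 21.5 and 44.8 CPM in central ones. All 4 endosteal values lay below the lowest central value, and the exact permutation test (two-sided) gave p = 0.0286, the smallest that 4 against 4 libraries allow. Any gene without overlap in 4 against 4 libraries gets this p. For Tfe3 it therefore restates the lack of overlap, and it is not adjusted for the choice of genes. The log2 fold change of endosteal over central was -3.0 ± 1.01 (SE), with an edgeR adjusted p of 0.483 and a DESeq2 adjusted p of 0.0265.

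The Tfe3 difference passed the 10% FDR by DESeq2 in 8 of 9 fits, those with all libraries or with each left out in turn. It missed it without WT central library A, at an adjusted p of 0.1, and was -3.21 (adjusted p = 0.0419) without WT central library D, the one with neutrophil transcripts. With spike-in scaling, which moved the median of all genes to 1.58, the log2 fold change of Tfe3 was -0.34, or -1.92 relative to that median (edgeR adjusted p = 0.92). It was -4.12 (edgeR adjusted p = 0.601) in the libraries with at least 0.5% of reads on spike-in RNAs.

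Hexa (chr9:59539540-59565109), whose product degrades the ganglioside GM2, measured 162, 134, 160 and 180 CPM in endosteal and 49.8, 111, 85.8 and 93.7 CPM in central WT libraries. The endosteal libraries all lay above the central ones. The log2 fold change was 0.88 ± 0.40 (edgeR adjusted p = 0.626, DESeq2 adjusted p = 0.274). The exact permutation test gave 0.0286, which the lack of overlap fixes. Of 18 edgeR fits of Hexa in this comparison, 5 had an unadjusted p under 0.05, all with the value above 0. Hexa shares exon sequence with Tmem202 on the opposite strand.

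Ctss (chr3:95526786-95556403), a cathepsin of antigen-presenting cells, had 0.975, 12, 13.2 and 10.1 CPM in endosteal and 9.05, 17.4, 223 and 4.38 CPM in central WT libraries. The groups overlapped, and the single high library was C, where Lyz2 alone reached 2440 CPM. Its log2 fold change of -2.80 ± 1.25 (edgeR adjusted p = 0.623) became -0.19 (edgeR adjusted p = 0.98) without that library. The part of macrophage RNA in the value was not tested.

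Across the 46 genes of the group that were tested in WT libraries, 0 passed the 10% FDR by edgeR, as did 0% of all 11181 genes, and 1 (2.17%) passed by DESeq2 against 4.52% of all genes. At an unadjusted edgeR p under 0.05 there were 3 (6.52%) against 7.89% of all genes, and for 2 (4.35%) the groups did not overlap, against 6.36% of all genes. The shares of the group were therefore near those of all genes. The median log2 fold change was 0.06, beside 0.03 over all genes, with 26 values above 0 and 20 below. By role, all 6 tested glycosidases (Gaa, Glb1, Gusb, Hexa, Man2b1 and Neu1) had values above 0, with a median of 0.44 and a highest value of 0.91, that of Man2b1 (lysosomal α-mannosidase), and none of the 6 passed the FDR. Of the 8 cathepsins, 6 lay below 0, with a median of -0.45, while Ctsa (1.05) and Ctsd (0.45) lay above 0. Their summed share of reads was 0.127% ± 0.0222 in WT endosteal and 0.115% ± 0.0142 in WT central libraries (SD, n = 4 each).

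**Figure D4:**
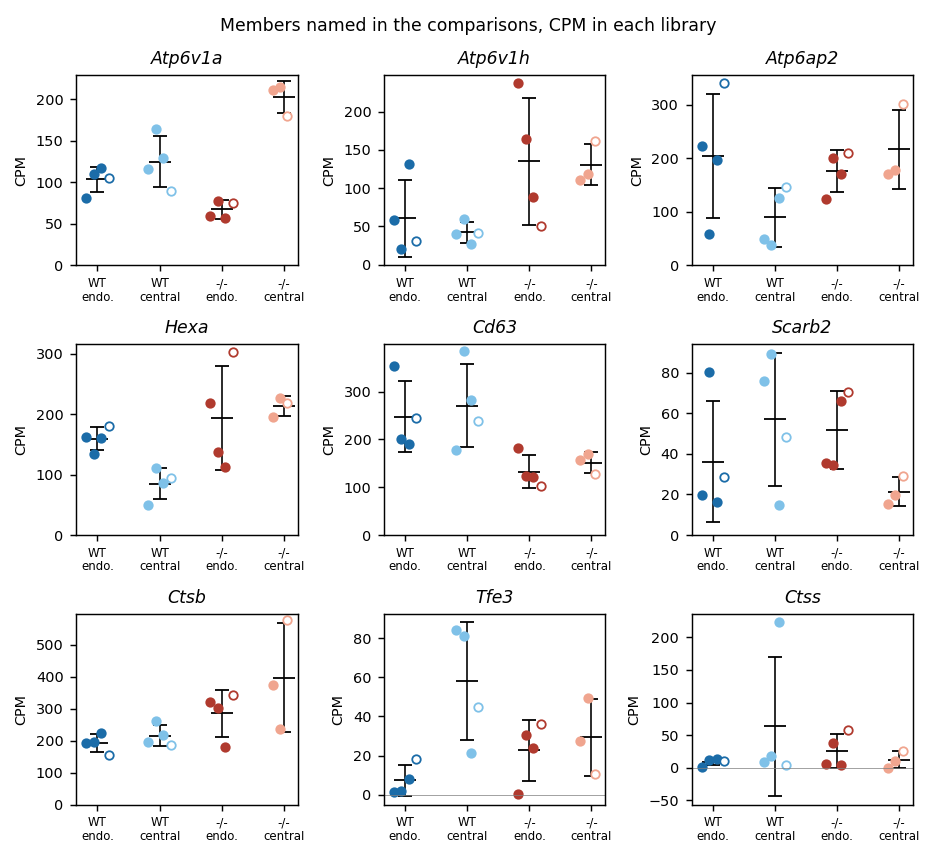
CPM of 9 genes named in the comparisons, 1 point per library in each of the 4 groups, with mean and SD as black bars; open points are the libraries with under 0.5% of reads on spike-in RNAs. Atp6v1a separates endosteal from central libraries labelled Gfra2-/- (56.6 to 77.8 against 180 to 215 CPM), and Tfe3 and Hexa separate the WT compartments.

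In libraries labelled Gfra2-/-, the comparison of compartments had its smallest p for Atp6v1a (chr16:44085402-44139705), the V1 A subunit, which binds and hydrolyses ATP. It measured 59.3, 77.8, 56.6 and 75.3 CPM in endosteal and 211, 215 and 180 CPM in central libraries, with no overlap. The means were 67.3 ± 10.8 (SD, n = 4) and 202 ± 19.2 CPM (SD, n = 3), and the log2 fold change of endosteal over central was -1.59 ± 0.27 (SE). By edgeR the unadjusted p was 0.000273 and the adjusted p 0.756, and no gene passed the FDR by edgeR in this comparison. By DESeq2 the adjusted p was 1.21e-08. The exact permutation test gave 0.0571, the smallest that 4 against 3 libraries allow.

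The Atp6v1a difference passed by DESeq2 in all 8 fits, with each library left out in turn, between -1.66 and -1.51. By edgeR it was -1.80 (adjusted p = 0.939) without the endosteal libraries B and D, which had the most Gfra2 counts. It was -1.71 (edgeR adjusted p = 0.942) without the libraries low in spike-in reads. In WT libraries the same gene measured 81.4, 110, 117 and 105 CPM in endosteal and 116, 164, 129 and 90 CPM in central HSCs, which overlapped (log2 fold change -0.29 ± 0.40, edgeR adjusted p = 0.896). The promoter of Atp6v1a is among those with the CLEAR core shown above. Other genes with the core went both ways between compartments in libraries labelled Gfra2-/-. By edgeR, Mcoln1 (1.33), Atp6v0d1 (0.44), Atp6v0e (0.27) and Ctsd (0.145) had log2 fold changes above 0. Ctsa (-0.35) and Gla (-0.585) had values below 0. A part of the core in the Atp6v1a difference was not tested.

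Scarb2 (chr5:92441314-92506833), also called LIMP-2, the membrane protein that carries glucocerebrosidase to lysosomes, went the other way. It measured 35.4, 34.7, 66.3 and 70.6 CPM in endosteal and 15.2, 19.5 and 29.2 CPM in central libraries labelled Gfra2-/-, without overlap. The log2 fold change was 1.28 ± 0.56, with an edgeR adjusted p of 0.999 and a DESeq2 adjusted p of 0.162. An unadjusted edgeR p under 0.05 was found in 7 of 18 fits, and without endosteal libraries B and D the value was 1.26 (edgeR adjusted p = 1). Within WT libraries Scarb2 ranged from 16.5 to 80.3 CPM in endosteal and 14.7 to 89.2 CPM in central HSCs.

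Of the 47 genes of the group tested here, 0 passed the FDR by edgeR (0% of all 13860 genes) and 1 (2.17% of the 46 with an adjusted value) by DESeq2, against 2.78% of all genes. An unadjusted edgeR p under 0.05 was found for 2 (4.26%) against 4.79% of all genes, and groups without overlap for the same 2 genes, Atp6v1a and Scarb2, against 7.34% of all genes. The median log2 fold change was -0.14 beside 0.03 over all genes, with 21 values above 0 and 26 below. Apart from Atp6v1a, the V1 subunits did not separate: Atp6v1b2, which forms the catalytic hexamer with the A subunit, measured 106 to 270 CPM in endosteal and 166 to 202 CPM in central libraries (log2 fold change -0.12 ± 0.35).

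**Figure D5:**
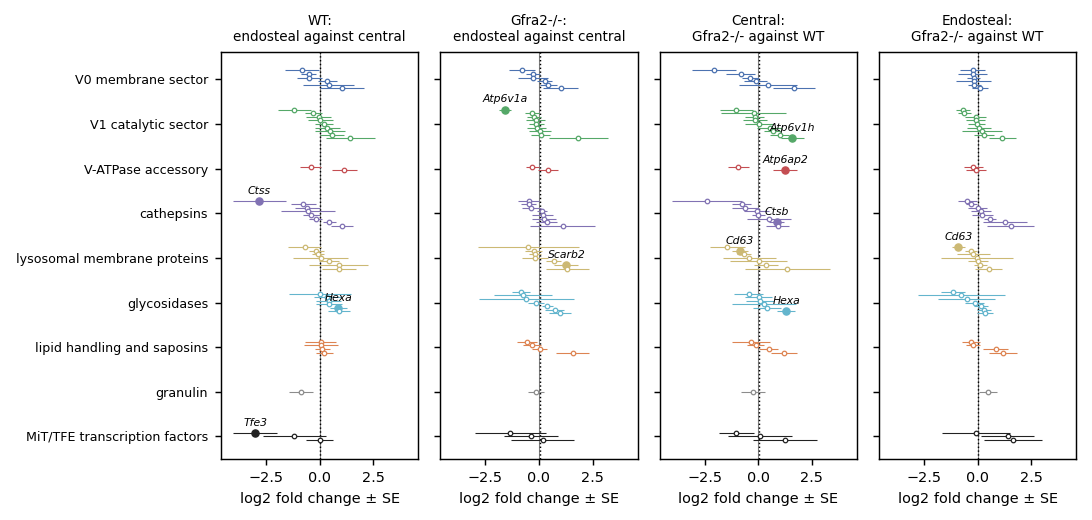
Log2 fold change with its SE (edgeR) of each tested gene by role in the 4 comparisons of groups; filled and named points have an unadjusted p under 0.05, and the dotted line is the median of all genes (0.03). In libraries labelled Gfra2-/-, Atp6v1a lies at -1.59 with an SE of 0.27.

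In central HSCs, libraries labelled Gfra2-/- and WT were compared to ask what the loss of GFRα2 changes in that niche. Hexa and Atp6v1h were higher in libraries labelled Gfra2-/-, by DESeq2 but not by edgeR. Hexa measured 195, 226 and 218 CPM against 49.8, 111, 85.8 and 93.7 CPM in WT, which did not overlap. Its log2 fold change was 1.30 ± 0.42 (edgeR adjusted p = 0.372, DESeq2 adjusted p = 0.0917).

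Atp6v1h (chr1:5070018-5162529), the H subunit that regulates the coupling of V1 to V0, measured 111, 119 and 161 CPM in central libraries labelled Gfra2-/- against 40.7, 60.3, 26.8 and 41.8 CPM in WT, also without overlap. The log2 fold change was 1.59 ± 0.53 (edgeR adjusted p = 0.387, DESeq2 adjusted p = 0.039). An exon of Rgs20 on the opposite strand overlaps the gene. Both calls were lost by DESeq2 when any of the 3 central libraries labelled Gfra2-/- was left out, with adjusted p between 0.192 and 0.396, and that of Hexa also without WT central library C (0.115) or D (0.143). The exact permutation test gave 0.0571 for each gene.

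Atp6ap2 (chrX:12587801-12617049), the accessory protein also known as the prorenin receptor, measured 170, 178 and 302 CPM in libraries labelled Gfra2-/- against 48.9, 37.3, 126 and 147 CPM in WT, without overlap. Its log2 fold change was 1.25 ± 0.54 (edgeR adjusted p = 0.545), or 0.91 (edgeR adjusted p = 0.826) without central library C labelled Gfra2-/-. Ctsb (chr14:63122462-63145923), an abundant cysteine cathepsin, measured 375, 237 and 576 CPM against 196, 261, 219 and 186 CPM, which overlapped (0.86 ± 0.36, edgeR adjusted p = 0.516). The highest Ctsb value came from library C, which was also high in Lyz2, and without it the log2 fold change was 0.46 (edgeR adjusted p = 0.879); the part of macrophage RNA was not tested.

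Cd63 (chr10:128900989-128912822), a tetraspanin of late endosomes and lysosomes, did not pass the FDR by either tool in central HSCs. It measured 156, 170 and 128 CPM in libraries labelled Gfra2-/- against 177, 385, 282 and 239 CPM in WT, where the lowest WT library lay just above the highest of the other group. The log2 fold change was -0.86 ± 0.38 (edgeR adjusted p = 0.547); in this comparison the gene was chosen after its values were seen, and the value was -0.64 (edgeR adjusted p = 0.615) without WT central library B. Spike-in scaling moved the median of all genes to 1.75 and that of Cd63 to 0.78, which is -0.97 relative to all genes. Summed with its pseudogene (described with the endosteal values), Cd63 measured 309, 325 and 243 CPM against 311, 746, 464 and 478 CPM in WT, and the groups overlapped.

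Of the 46 genes of the group tested in central HSCs, 0 passed the FDR by edgeR, as did 0.051% of all 11772 genes. By DESeq2, 2 of 47 (4.26%) passed, against 5.17% of all genes. An unadjusted edgeR p under 0.05 was found for 5 (10.9%), against 8.73% of all genes. The groups did not overlap for 7 (15.2%), against 12.4% of all genes: Atp6ap2, Atp6v1a, Atp6v1b2, Atp6v1h and Hexa were above and Cd63 and Lamp2 below WT. The median log2 fold change was 0.01, beside 0.03 over all genes, and 24 of the values lay above 0 and 22 below. WT central libraries were the shallowest, and without libraries A and C of that group, which had under 1500000 reads on genes, the median was 0.28 beside 0.10 over all genes.

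In endosteal HSCs, the same comparison of genotypes gave its smallest edgeR p for Cd63, which did not pass the FDR by either tool. It measured 183, 124, 121 and 103 CPM in libraries labelled Gfra2-/- against 353, 201, 191 and 245 CPM in WT. The groups did not overlap, with means of 133 ± 34.8 and 247 ± 73.9 CPM (SD, n = 4 each). The exact permutation p of 0.0286 follows from the lack of overlap and is not adjusted for the choice of the gene. The log2 fold change was -0.89 ± 0.30, with an edgeR adjusted p of 0.737 and a DESeq2 adjusted p of 0.157.

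A transcribed pseudogene of Cd63 took 22800 reads over the 15 libraries, nearly as many as the gene in most of them. With both summed, the libraries labelled Gfra2-/- measured 344, 236, 231 and 202 CPM and those of WT 643, 399, 379 and 478 CPM in endosteal HSCs. The groups stayed apart, and the log2 fold change was -0.90 (edgeR adjusted p = 0.637). Without the endosteal libraries B and D labelled Gfra2-/-, which had the most Gfra2 counts, Cd63 alone had a log2 fold change of -0.70 (edgeR adjusted p = 0.927). Without the libraries low in spike-in reads it was -0.79 (edgeR adjusted p = 0.917).

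Atp6v1a was the other gene without overlap, at 56.6 to 77.8 CPM in endosteal libraries labelled Gfra2-/- against 81.4 to 117 CPM in WT (log2 fold change -0.62 ± 0.32, edgeR adjusted p = 0.75, DESeq2 adjusted p = 0.111). Over the 47 genes tested, 0 passed by edgeR (0% of all 12970 genes) and 0 by DESeq2 (3.71% of all genes). There was 1 gene (2.13%) at an unadjusted edgeR p under 0.05, against 6.69% of all genes, and 2 (4.26%) without overlap, against 6.24% of all genes. The median log2 fold change was -0.05 beside 0.03 over all genes, with 21 values above 0 and 26 below. All 6 tested V0 genes lay within 0.24 of 0 on the log2 scale.

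Whether the endosteal-to-central change depended on genotype was examined through the interaction term of a fit to all 15 libraries. For Atp6v1a, the change in libraries labelled Gfra2-/- was lower than in WT by a log2 difference of -1.32 ± 0.45 (edgeR adjusted p = 0.539, DESeq2 adjusted p = 0.0374). Its DESeq2 call held in 11 of 16 fits and was lost when WT endosteal library C or, among those labelled Gfra2-/-, endosteal library A or C or central library A or B was left out, with adjusted p between 0.104 and 0.147. Atp6ap2 had the second smallest p, with -1.49 ± 0.72 (edgeR adjusted p = 0.712).

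Of the 47 genes, 0 passed the interaction by edgeR (0% of all 15416 genes), 1 (2.13%) by DESeq2 against 1.69% of all genes, and 1 (2.13%) had an unadjusted edgeR p under 0.05 against 6.97% of all genes. The comparisons share libraries: each group enters a comparison of compartments and a comparison of genotypes. For Atp6v1a, the values side by side were -0.29 (WT compartments), -1.59 (compartments in libraries labelled Gfra2-/-), 0.67 (genotypes in central HSCs) and -0.62 (genotypes in endosteal HSCs).

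Beyond the 56 genes, 59 other lysosomal genes were listed (further hydrolases, the Ragulator and Rag proteins that tether mTORC1, sorting receptors and transporters), of which 58 were in the table. By edgeR, 0 passed the 10% FDR in each of the 5 tests. By DESeq2, 5 of 55 passed between WT compartments, against the 4.52% of all genes given above. Between compartments in libraries labelled Gfra2-/-, 1 of 56 passed, against 2.78% of all genes. For genotypes in central and in endosteal HSCs and for the interaction, 0 passed, against 5.17%, 3.71% and 1.69% of all genes. At an unadjusted edgeR p under 0.05, the WT comparison had 6 of 55 higher and 4 lower in endosteal HSCs (18.2%, against 7.89% of all genes). Compartments in libraries labelled Gfra2-/- had 3 of 56 (5.36%), against 4.79% of all genes. Genotypes in central HSCs had 2 of 55 (3.64%) against 8.73%, and in endosteal HSCs 3 of 55 (5.45%) against 6.69%. The interaction had 3 of 56 (5.36%), against 6.97% of all genes.

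Among these, Pla2g15, a lysosomal phospholipase, measured 12.7 to 167 CPM in endosteal and 1.34 to 15.8 CPM in central WT libraries (log2 fold change 3.14 ± 0.98, edgeR adjusted p = 0.467, DESeq2 adjusted p = 0.0373). In the other direction, Ctsf, a cysteine cathepsin, measured 11.7 to 48.6 CPM in endosteal and 38 to 379 CPM in central WT libraries (-2.41 ± 0.79, edgeR adjusted p = 0.481, DESeq2 adjusted p = 0.0721). Lamtor3, a Ragulator subunit, measured 28.3 to 56.5 CPM and 70.6 to 228 CPM in these (-1.61 ± 0.58, edgeR adjusted p = 0.537, DESeq2 adjusted p = 0.0695). Smpd1, the acid sphingomyelinase, measured 31.2 to 63.5 CPM in endosteal and 69.1 to 175 CPM in central libraries labelled Gfra2-/- (-1.54 ± 0.46, edgeR adjusted p = 0.896, DESeq2 adjusted p = 0.078). Tcirg1, the a3 subunit, measured 146 to 298 CPM and 92.6 to 134 CPM in the same libraries (1.0 ± 0.32, edgeR adjusted p = 0.896). Its endosteal libraries lay above the central ones, opposite to Atp6v1a.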

How the data were processed

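Per the labels and the methods, the authors aligned Smart-seq2 reads to GRCm38 (Ensembl 81 in the methods) with GSNAP, counted them per gene with htseq-count without strand (HTSeq 0.5.3p3), and deposited the raw counts. A column was tied to its group through the study's sample sheet, and 1 column that it does not place was not used. Symbols, lengths and positions came from GENCODE M21, and promoters from RefSeq (GRCm38.p6). The genes and lists were chosen with earlier results of these data known.

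Counts without spike-in RNAs were tested with edgeR 4.0.16 (filterByExpr, TMM, quasi-likelihood test, Benjamini-Hochberg adjustment over all genes, 10% FDR) on the libraries of the 2 groups compared; the interaction used all 15 libraries. DESeq2 1.42.0 (Wald test), the tool of the study, was an alternative, beside other scalings, filters, thinning and each library left out. Scripts were tested on simulated data. In the text, errors of log2 fold changes are SE and all adjusted p-values are Benjamini-Hochberg values of the tool named. Named were 7 landmark genes, up to 4 genes per comparison with the smallest edgeR p under 0.05, the 2 smallest p of the interaction, isoform families, and up to 3 other lysosomal genes per comparison. Libraries of 826487 to 18550008 reads limit the precision for genes with few counts. Read counts carry no molecular identifiers.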

Additional observations from a re-analysis of the deposited data

Results flagged for a closer look

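Within groups of 4 libraries, 48 sets of values were checked for a library far from the others, a check that chance alone flags about 1 time in 20, and 2 stood apart. Tfeb reached 46.5 CPM in library C of the Gfra2-/- endosteal group, where the other 3 held 0.35 to 7.64 CPM. Ctss reached 223 CPM in WT central library C, where the others held 4.38 to 17.4 CPM; this library had 826487 reads and the highest Lyz2 level. The endosteal-to-central change of Atp6v1a differed between the genotypes, with an interaction of -1.32 on the log2 scale at an unadjusted edgeR p of 0.00954, which did not pass the FDR (adjusted p = 0.539).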

How the results depend on the processing

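By edgeR, 0 of the genes passed the 10% FDR in all 5 tests, under each alternative and with each library left out (0 to 0). DESeq2 gave 1 (Tfe3) between WT compartments, 1 (Atp6v1a) between compartments in libraries labelled Gfra2-/-, 2 (Atp6v1h and Hexa) in central HSCs, 0 in endosteal HSCs and 1 (Atp6v1a) for the interaction; the cause of the gap to edgeR was not tested. With each library left out, an alternative chosen after seeing the data, DESeq2 gave 0 to 1, 1 to 3, 0 to 2, 0 to 1 and 0 to 2. Spike-in scaling turned 2 named values, Ctss between WT compartments to 0.95 and Cd63 in central HSCs to 0.78, by shifting all genes: the medians over all genes moved to 1.58, -0.46, 1.75, -0.28 and -2.18 in the order above. Summing Cd63 and Atp6v0c with their pseudogenes, also chosen after seeing the data, changed no call. With edgeR and no low-count filter, 58 genes passed between WT compartments and 134 in central HSCs, against 0 and 6. No paired analysis was possible because no replicate number is attached to any column of counts. WT central libraries held the fewest reads, so values of low genes are least precise there.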
